A study of Papio anubis and Macaca mulatta with 6 samples.

Results

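The granins CHGA, CHGB, SCG2, SCG3, SCG5 and VGF were followed across the stromal, Leydig, Sertoli and germ cells of the immature testis in olive baboons and rhesus monkeys, each species on its own. The members were taken by gene symbol, and 4 of the 34178 genes listed for the baboon (CHGA, CHGB, SCG2 and VGF) and 6 of the 21356 genes listed for the rhesus monkey matched. SCG3 and SCG5 were not found by symbol in the baboon gene list and were not analysed here in that species. The 6 genes were chosen on their UMIs (unique molecular identifiers, each standing for 1 captured RNA molecule) in these same libraries, so their levels are given as a description with no test.

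Granins are acidic proteins of the regulated secretory pathway, which gather calcium, hormones and peptides into dense-core granules and are themselves cut into bioactive peptides. They are used as markers of endocrine cells and neurons such as adrenal chromaffin cells, and the prohormone convertases PCSK1 and PCSK2, carboxypeptidase E (CPE) and the amidating enzyme PAM act on them in the granule. In the testis, Sertoli, Leydig and stromal cells also secrete proteins, largely by the constitutive route, which does not need granules.

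Testes of 2 untreated immature olive baboons and 2 untreated immature rhesus monkeys were recovered at necropsy, and cells were taken without selection after collagenase, a wash meant to remove interstitial cells, and trypsin with DNase. Baboon 1 gave 2 libraries (1A and 1B) and baboon 2 gave 1, rhesus monkey 1 gave 1 library and rhesus monkey 2 gave 2 (2A and 2B), with 5000 cells targeted in each. All libraries were single-cell 3′ libraries of 10x Genomics with chemistry version 2 except that of baboon 2, made with version 3. The study text gives the ages of the baboons as 0 and 26 months and of the rhesus monkeys as 15 and 20 months, while the series description has them the other way round between the species, and neither ties an age to a library, so age was not used. No treatment, genotype or time course was compared, and the comparisons below are between cell classes of the same animals.

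The libraries held 16875294 to 49803025 UMIs, and 23105 baboon and 26470 rhesus barcodes were called as cells, with library medians of 1445 to 2735 UMIs per cell. Cells were put in a class by the UMIs of marker lists that hold no granin. This gave 220 germ, 16413 Sertoli, 4795 stromal and 39 Leydig cells in the baboon and 354, 7888, 14219 and 453 in the rhesus monkey. The germ cell list summed to 3264 CPM (UMIs per 1000000 UMIs of all genes in the class) in baboon germ cells against 150 in Sertoli and 33.3 in stromal cells. This contrast follows from the class rule, which used the same list. The 10 genes with the highest fold in the baboon germ class hold no gene of that list, and include FABP5, a fatty acid carrier, and CTAG2, a cancer-testis antigen. The 10 genes with the highest fold in the baboon Leydig class included INSL3, STAR and LHCGR, at ranks 1, 3 and 8. The rule for this class itself asked for INSL3 UMIs. The baboon Leydig class also held 6045 CPM of the Sertoli list, and only 5 of its 39 cells came from baboon 1. Libraries 1A and 1B shared 68 cell barcodes, and the 3 pairs of rhesus libraries shared 109 to 123.

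In the rhesus genome (Mmul_10), CHGA lies at chr7:155069864-155082021 on the plus strand with 8 exons, CHGB at chr10:60590123-60604409 on the minus strand and VGF at chr3:43289569-43294405 on the minus strand. SCG2 lies at chr12:111035015-111040527 on the minus strand, SCG3 at chr7:28064766-28102437 and SCG5 at chr7:8986889-9042932, both on the plus strand. In the baboon build (Panubis1.0), the gene list places CHGA at 7:13650438-13662139, CHGB at 16:52590271-52604544, SCG2 at 10:107377102-107382650 and VGF at 4:138920660-138923727.

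The repressor REST binds RE1 sites in many genes of neurons and endocrine cells, so the sequence around each rhesus gene start was searched on both strands for the RE1 site's parts TTCAGCACC and GGACAG with 2 bases between them and at most 1 mismatch in the 15 fixed letters. Within 2000 bases either side of the start, 161 of 20783 genes, or 0.775%, held a match, and CHGA, CHGB and VGF were among them. The matches of these 3 granins are printed 5′ to 3′ on the strand of the match, and capitals mark letters equal to the parts searched. The CHGA match lies in an intron at chr7:155070289-155070305 on the plus strand, 426 bases after the gene start, with 0 mismatches. The CHGB match lies in an intron at chr10:60603832-60603848 on the minus strand, 562 bases after the start, with 1 mismatch. The VGF match lies in an exon at chr3:43292608-43292624 on the plus strand, opposite to the gene, 1782 bases after the start, with 1 mismatch.
CHGA: TTCAGCACCgcGGACAG
CHGB: gTCAGCACCgcGGACAG
VGF: TTCAGCACgctGGACAG
SCG2, SCG3 and SCG5 held no such run of letters in this window. The cyclic AMP response element TGACGTCA stood in the 250 bases before the start of SCG2 alone among the 6 granins, 48 bases before the start, against 1.47% of all genes. The shorter run TGACG stood before CHGB 2 times, on the strand opposite to the gene, and before 19.7% of all genes. Before SCG2 it was found only as the 2 strands of the element itself. These matches describe the sequence only, and no binding was measured.

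CHGA, the precursor of the peptides pancreastatin and catestatin, had most of its UMIs in the stroma. In baboon stromal cells its level was 32.4 CPM (43 UMIs) in library 1A, 34.6 (27 UMIs) in library 1B and 148 (916 UMIs) in library 2, which gives 90.7 ± 81.2 (SD, n = 2 animals). In rhesus stromal cells it was 18.4 (174 UMIs) in library 1, 48.9 (328 UMIs) in 2A and 55.0 (342 UMIs) in 2B, or 35.1 ± 23.6 (SD, n = 2 animals). The second animal was the higher one in both species, and libraries of one animal lay close together.

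Sertoli cells held little CHGA, with 0.155, 0.351 and 1.74 CPM in baboon libraries 1A, 1B and 2 and 2.99, 7.47 and 6.27 in rhesus libraries 1, 2A and 2B. Germ cells held 2.97, 0 and 3.80 CPM in the baboon, where the 0 stands for 0 UMIs in 32 cells and allows up to 9.53, and 3.49, 3.34 and 0 in the rhesus monkey, where the 0 allows up to 13.2. In every library the stromal level lay above both, and the counting intervals did not overlap. Stromal cells held 83.7% of all CHGA UMIs in called baboon cells and 82.3% in called rhesus cells.

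**Figure D1:**
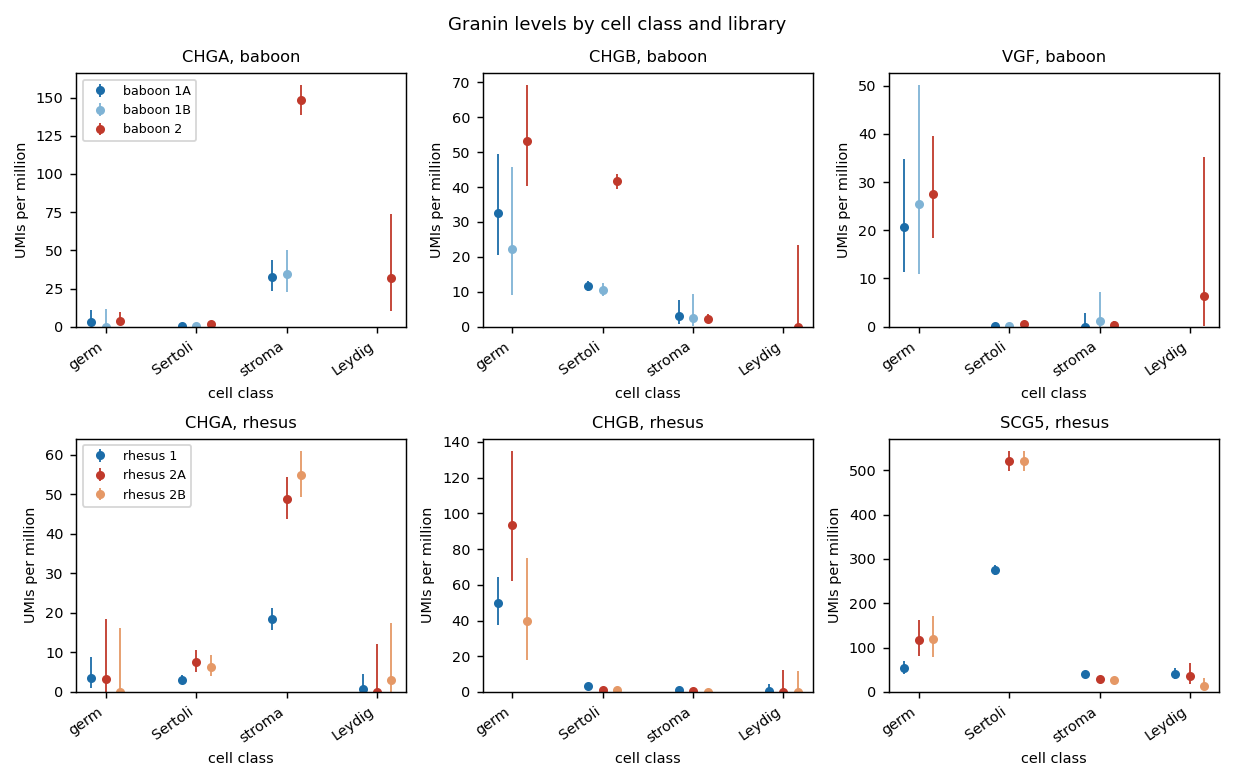
CPM (vertical axes, linear) of CHGA, CHGB and VGF in baboon and of CHGA, CHGB and SCG5 in rhesus germ, Sertoli, stromal and Leydig cells, with 1 point per library and exact 95% Poisson intervals, Leydig classes of fewer than 20 cells left out. Of the classes drawn, CHGA stands highest in stromal cells of every library (32.4 to 148 in the baboon and 18.4 to 55.0 in the rhesus monkey), and SCG5 in rhesus Sertoli cells (275 to 521).

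Leydig cells are the androgen-making cells of the interstitium, and CHGA in them was a matter of few UMIs. The 34 Leydig cells of baboon 2 held 5 UMIs, or 31.6 CPM (exact 95% Poisson interval 10.2 to 73.6), while the 453 rhesus Leydig cells held 2 UMIs, at 0.831, 0 and 3.14 CPM in libraries 1, 2A and 2B. The baboon class is small and carries UMIs of the Sertoli and stromal lists, and the part of other cells in its 5 UMIs was not tested.

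Vessel cells and macrophages of baboon 2 also held CHGA. Its 142 endothelial cells held 47 UMIs (68.2 CPM), of which 15 came from 1 cell, and without that cell the level was 47.5. Its 36 pericytes held 7 UMIs in 3 cells (49.1 CPM), and its 33 macrophages held 4 UMIs in 3 cells (52.2 CPM). In baboon 1 the 143 endothelial cells, 65 pericytes and 11 macrophages held no CHGA UMI. The floor of 3 UMIs was 9.37 and 13.9 CPM in the endothelial cells of libraries 1A and 1B. In their pericytes it was 31.0 and 27.0 CPM. Rhesus endothelial cells held 0, 9.70 and 8.14 CPM in libraries 1, 2A and 2B, and rhesus peritubular myoid cells 17.4, 33.8 and 19.7. Rhesus pericytes held 19.1, 5.31 and 5.08 CPM, and rhesus macrophages 5.03, 0 and 0.

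Most stromal cells had no CHGA UMI, and those with one had few. Of 4795 baboon stromal cells, 645 had a UMI, 196 had 2 or more, and the highest count was 9. Of 14219 rhesus stromal cells, 693 had a UMI, 113 had 2 or more, and the highest count was 6.

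To set cells of unlike depth side by side, each cell was thinned to 1000 UMIs and shallower cells were left out (778 of the baboon and 2597 of the rhesus stromal cells). At this depth 8.69% of 4017 baboon stromal cells had a CHGA UMI (exact 95% binomial interval 7.83 to 9.60; 13.5% unthinned), against 0.0664% of 15065 Sertoli cells (0.0318 to 0.122; 0.341% unthinned). In the rhesus monkey the shares were 3.11% of 11622 stromal cells (2.81 to 3.45; 4.87% unthinned) and 0.409% of 6847 Sertoli cells (0.272 to 0.590; 0.976% unthinned). Median depths were 1563 and 2311 UMIs per cell in baboon stromal and Sertoli cells and 1438 and 1652.5 in the rhesus monkey, so the stroma had the larger share at the lower depth. These intervals cover counting error only, not the spread between animals.

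Free RNA from broken cells can give UMIs in cells that do not make an RNA. Near-empty droplets of baboon libraries 1A, 1B and 2 held 2.42, 5.54 and 54.1 CPM of CHGA (4, 1 and 15 UMIs). The UMIs of AMH, a hormone of Sertoli cells, found in stromal cells put the fraction of free RNA in stromal cells at 0.0531 to 0.171 in the baboon and 0.114 to 0.328 in the rhesus monkey at most, since AMH made by the cells themselves would count as free RNA. From this, free RNA would give 0.277, 0.945 and 2.87 CPM of CHGA in baboon stromal cells, all below the 32.4 to 148 measured, and 3.03, 2.65 and 2.60 in rhesus stromal cells, below the 18.4 to 55.0 measured. In Sertoli cells, with the stromal gene DCN in place of AMH, free RNA would give 0.124, 0.196 and 4.50 CPM of CHGA in the baboon libraries, where 0.155, 0.351 and 1.74 were measured, and 1.75, 5.16 and 3.97 in the rhesus libraries, where 2.99, 7.47 and 6.27 were measured. The Sertoli level was thus below that value in baboon 2 and above it in the other 5 libraries, by less than a factor of 2 in each. In 1A and 1B the Sertoli levels rest on 3 and 4 UMIs, and their counting intervals hold the value from free RNA. So no difference was detectable in these libraries.

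**Figure D2:**
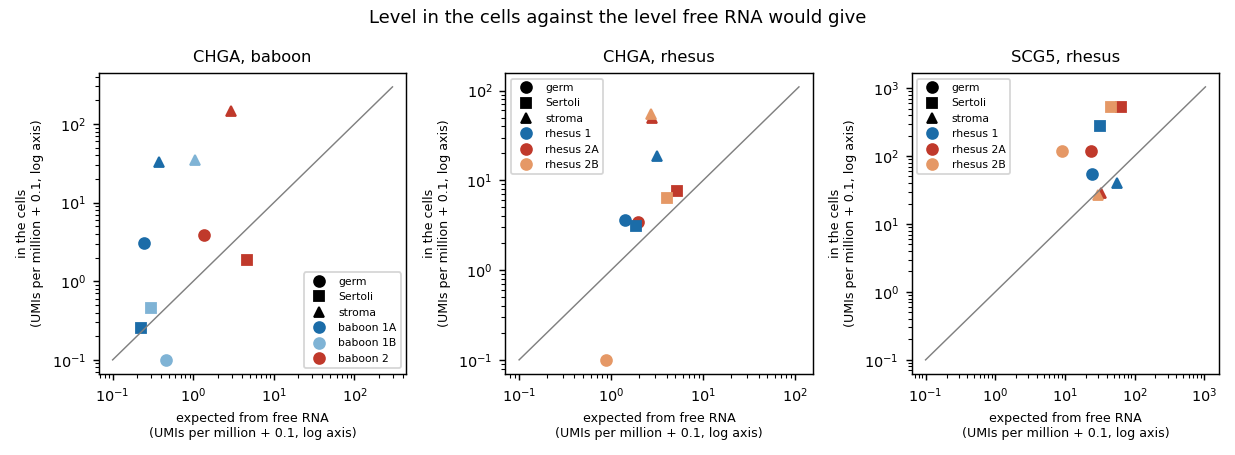
Level in the cells (vertical axes) against the level free RNA would give (horizontal axes), both in CPM plus 0.1 on log axes, for CHGA in both species and SCG5 in the rhesus monkey, with 1 point per class and library and the line of equal values. Stromal CHGA stands above the line in all 6 libraries, while rhesus stromal SCG5 stands on or below it (39.8 measured and 55.3 expected in library 1).

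Within the stroma, CHGA was higher towards the cells rich in DLK1, a Notch-like protein of immature stromal cells, than towards those rich in complement gene C7. Stromal cells were ranked in each library by the UMIs of a DLK1 list over those of a C7 list, neither holding a granin, and cut in 3 equal parts. In library 1A CHGA was at 20.3, 11.4 and 65.3 CPM in the C7-high, middle and DLK1-high parts, in 1B at 7.81, 18.7 and 78.0, and in library 2 at 68.5, 111 and 245. In rhesus library 1 it was at 6.25, 12.8 and 34.5, in 2A at 33.6, 62.1 and 50.4, and in 2B at 44.8, 56.9 and 62.3.

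The DLK1-high part was above the C7-high part in 6 of 6 libraries, but the middle part was the highest in rhesus 2A and the lowest in 1A. The log2 ratio of the DLK1-high to the C7-high part was 1.96 ± 0.18 (SD, n = 2) in the baboon and 1.40 ± 1.26 (SD, n = 2) in the rhesus monkey. The rhesus value rests on animal 1, since without its library the ratio was 0.51. Counting intervals of the outer parts overlapped in 2A (26.3 to 42.4 and 41.7 to 60.4) and in 2B (36.0 to 55.2 and 52.2 to 73.7), and in none of the other 4 libraries.

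**Figure D3:**
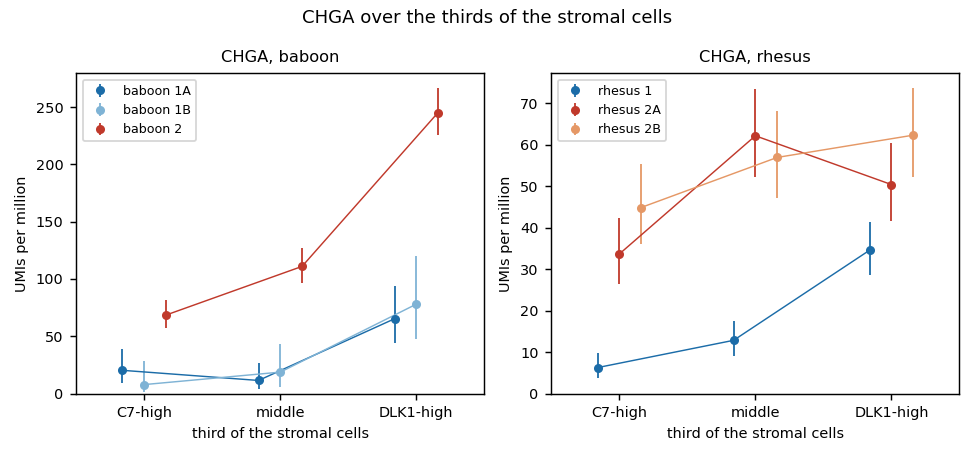
CHGA in CPM (vertical axes, linear) in the C7-high, middle and DLK1-high parts of the stromal cells, with 1 line per library and exact 95% Poisson intervals. The DLK1-high part lies above the C7-high part in every library, from 20.3 against 65.3 in baboon 1A to 44.8 against 62.3 in rhesus 2B.

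At 1000 UMIs per cell, 14.1% of baboon DLK1-high cells (12.3 to 16.1) and 4.97% of C7-high cells (3.87 to 6.26) had a CHGA UMI, and 22.5% and 7.5% unthinned. In the rhesus monkey the thinned shares were 4.13% (3.52 to 4.80) and 2.15% (1.71 to 2.65). Median depths of the DLK1-high and C7-high parts were 1665.5 and 1532 UMIs per cell in the baboon and 1464 and 1413.5 in the rhesus monkey.

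Markers of nerve and chromaffin cells were counted in the same stromal cells, since CHGA is best known from those cells. Of 13 such markers listed in the baboon, 11 had UMIs in stromal cells, and their sum was 72.4 to 76.9 CPM over the 3 libraries. NEFL and NEFM, subunits of neurofilaments, held 351 and 206 of the 610 UMIs, while TH and PNMT, enzymes of adrenaline synthesis, held 22 and 4, and ELAVL4 held 0. In the rhesus monkey 11 of 14 markers had UMIs, with sums of 24.6 to 37.1 CPM, and ELAVL4 and ISL1 held 0. NEFM held 203 of the 676 UMIs, ELAVL3 202 and NEFL 154. Baboon stromal cells with a CHGA UMI held 117 CPM of the list against 63.4 in those without, and rhesus cells 43.2 against 29.4. Median depths in the baboon were 2219 and 1491 UMIs per cell. Within the DLK1-high part alone the list was at 162 against 120 CPM in the baboon and 61.8 against 43.1 in the rhesus monkey. The part of nerve and chromaffin cells in the CHGA level was not tested.

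By likeness of pattern across 27 class and library points in the baboon, CHGA was nearest to IGF1 (Pearson r = 0.805), GPC3 (r = 0.804) and C1QTNF7 (r = 0.795) among 12139 genes with at least 200 UMIs. Across 29 points in the rhesus monkey it was nearest to VGLL4 (r = 0.932), ENC1 (r = 0.908) and the gene listed only as ENSMMUG00000019882 (r = 0.881) among 9694 genes. Genes of the class marker lists were left out of these rankings and could not appear in them. The points share libraries and class makeup, so these values are a description.

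CHGB, the second chromogranin, was found in germ cells of both species. Its level in baboon germ cells was 32.6 CPM (22 UMIs) in library 1A, 22.2 (7 UMIs) in 1B and 53.2 (56 UMIs) in library 2, or 41.3 ± 16.9 (SD, n = 2 animals). In rhesus germ cells it was 49.7 (57 UMIs) in library 1, 93.5 (28 UMIs) in 2A and 39.5 (9 UMIs) in 2B, or 59.9 ± 14.4 (SD, n = 2 animals). In library 2A, 15 of the 28 UMIs came from 1 cell, and without it the level was 49.5, so the high value of 2A rests on that cell. The rhesus mean and SD above include that cell.

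Stromal cells held little CHGB, at 3.02, 2.56 and 2.10 CPM in baboon libraries 1A, 1B and 2 and 1.06, 0.448 and 0.161 in rhesus libraries 1, 2A and 2B. Free RNA would give 1.59, 0 and 1.72 in the baboon libraries. The 0 of 1B stands for 0 CHGB UMIs among only 180583 UMIs of near-empty droplets, and the part of free RNA there was not tested. None of the 39 baboon Leydig cells had a CHGB UMI, which allows up to 7.69% of cells with a UMI and a level of up to 17.2 CPM, and 1 of the 453 rhesus Leydig cells had one.

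Sertoli cells, which nurse the germ cells, held CHGB mostly in the baboon. Baboon Sertoli cells held CHGB at 11.6 CPM (225 UMIs) in 1A, 10.4 (119 UMIs) in 1B and 41.6 (1410 UMIs) in library 2, or 26.4 ± 21.5 (SD, n = 2 animals), and held 91.9% of all CHGB UMIs in called baboon cells, of which they were the most numerous class. Rhesus Sertoli cells held 3.46, 1.25 and 1.31 CPM in libraries 1, 2A and 2B, or 2.37 ± 1.55 (SD, n = 2 animals), and rhesus germ cells held 58.4% of the CHGB UMIs. No rhesus library reached the lowest baboon value, but the species also differ in gene list and age, which cannot be told apart from species here.

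In the rhesus monkey the germ level was above the Sertoli level in 3 of 3 libraries with intervals that did not overlap. In baboon 1A the intervals for germ cells (20.4 to 49.4) and Sertoli cells (10.1 to 13.2) did not overlap either, whereas in 1B (8.94 to 45.8 and 8.65 to 12.5) and in library 2 (40.2 to 69.1 and 39.5 to 43.9) they did. Baboon 2 differs from baboon 1 in animal, age and chemistry, so its higher Sertoli level cannot be told apart from these.

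Shares of cells with a UMI were larger in deeper cells. Unthinned, 23.2% of 220 baboon germ cells and 7.82% of 16413 Sertoli cells had a CHGB UMI at medians of 8164 and 2311 UMIs per cell. At 1000 UMIs per cell the shares were 4.0% of 200 germ cells (exact 95% binomial interval 1.74 to 7.73), 1.88% of 15065 Sertoli cells (1.67 to 2.11) and 0.249% of 4017 stromal cells (0.119 to 0.457). In library 2 alone the thinned share was 3.06% in germ cells (0.636 to 8.69) and 4.54% in Sertoli cells (3.89 to 5.26), so no difference was detectable there. In the rhesus monkey the thinned shares were 5.03% of 298 germ cells (2.84 to 8.17; 13.3% unthinned), 0.248% of Sertoli cells (0.145 to 0.397; 0.482% unthinned) and 0.0516% of stromal cells (0.0189 to 0.112; 0.0914% unthinned).

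Among baboon Sertoli cells CHGB did not follow depth in 1 direction. In library 2 the parts of lowest, middle and highest depth held 52.8, 39.6 and 40.9 CPM, and in 1A they held 9.83, 9.38 and 13.2. No part of library 1A or 1B reached any part of library 2.

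Within germ cells CHGB was higher in the part richer in PIWIL4-state markers than in the part richer in NANOS3-state markers. The states are named for a PIWI protein of early spermatogonia and for an RNA regulator of germ cells. Germ cells of each library were cut in 2 equal parts by the ratio of both lists, so each part is a side of a ranking. The study text reports FGFR3, PIWIL4 and TSPAN33, all in the PIWIL4 list, as absent from rhesus spermatogonia. Whether the rhesus PIWIL4-high part expressed PIWIL4 itself was not tested. The NANOS3-high and PIWIL4-high parts held 19.2 and 41.1 CPM in baboon 1A, 8.38 and 30.7 in 1B and 24.7 and 71.2 in library 2. Those of the rhesus monkey held 36.8 and 66.6 in library 1, 33.1 and 120 in 2A and 21.0 and 70.6 in 2B.

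The PIWIL4-high part was higher in 6 of 6 libraries, on 1 to 24 UMIs in the NANOS3-high parts and 6 to 46 UMIs in the PIWIL4-high parts. The counting intervals overlapped in baboon 1A and 1B and in all 3 rhesus libraries, and not in baboon 2 (11.8 to 45.4 and 52.1 to 94.9). In 2A the cell with 15 UMIs sat in the PIWIL4-high part, which held 58.1 CPM without it. The log2 ratio was 1.35 ± 0.20 (SD, n = 2) in the baboon and 1.42 ± 0.82 (SD, n = 2) in the rhesus monkey. The rhesus ratio includes the cell with 15 UMIs, and leaving out each rhesus library gave 1.27 to 2.00. Median depth was higher in the PIWIL4-high part of the baboon (11906 against 4836.5 UMIs per cell) and lower in that of the rhesus monkey (2107 against 3039.5), and its part in the ratio was not tested.

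**Figure D4:**
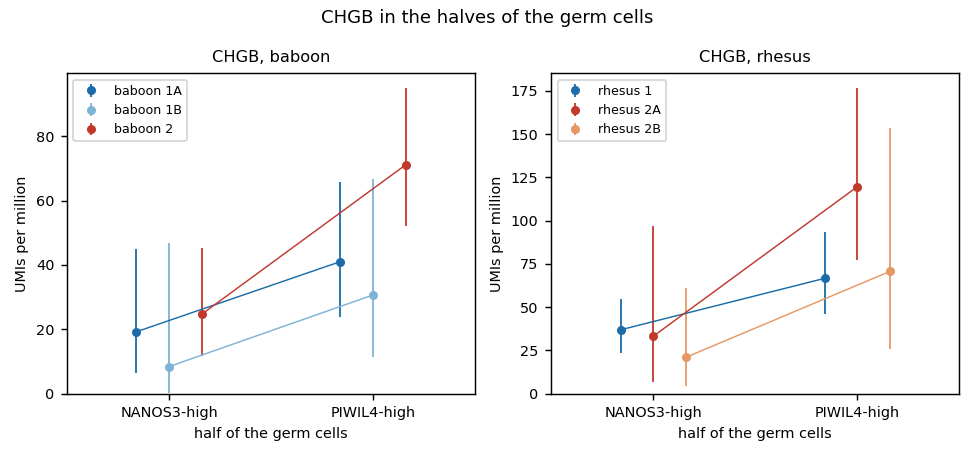
CHGB in CPM (vertical axes, linear) in the NANOS3-high and PIWIL4-high parts of the germ cells, with 1 line per library and exact 95% Poisson intervals. Each line rises to the PIWIL4-high part, from 24.7 to 71.2 in baboon 2 and from 36.8 to 66.6 in rhesus 1, while the intervals of the parts are wide and overlap in 5 of the 6 libraries.

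VGF, a secreted neurotrophin-responsive protein cut into several peptides, was found in baboon germ cells. It was at 20.8 CPM (14 UMIs) in 1A, 25.4 (8 UMIs) in 1B and 27.6 (29 UMIs) in library 2, or 24.9 ± 3.77 (SD, n = 2 animals), which are close to each other. Germ cells were 220 of 23105 called cells and held 62.2% of the 82 VGF UMIs. Sertoli cells held 0.206, 0.0878 and 0.532 CPM and stromal cells 0, 1.28 and 0.323, each on 18 UMIs or fewer. At 1000 UMIs per cell, 4.0% of 200 germ cells (1.74 to 7.73), 0.00664% of 15065 Sertoli cells (0.000168 to 0.0370) and 0.0747% of 4017 stromal cells (0.0154 to 0.218) had a VGF UMI, against 15.5%, 0.140% and 0.0626% unthinned.

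VGF was also counted in both germ cell states. The NANOS3-high and PIWIL4-high parts held 7.69 and 29.0 CPM in 1A, 16.8 and 30.7 in 1B and 29.6 and 26.3 in library 2. The counting intervals overlapped in all 3 libraries (0.931 to 27.8 and 15.0 to 50.6 in 1A, 2.03 to 60.6 and 11.3 to 66.8 in 1B, 15.3 to 51.7 and 15.3 to 42.1 in library 2), so no difference was detectable. Of the 220 baboon germ cells, 51 had a CHGB UMI, 34 a VGF UMI and 14 both, and 13 of these 14 were in the deeper PIWIL4-high part. VGF in the rhesus monkey was listed but had 0 UMIs in all 26470 cells, and the 0 of 354 germ cells allows up to 0.847% of cells with a UMI, which does not limit the share of cells that express it, and a level of up to 1.79 CPM.

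Markers of nerve and chromaffin cells stood beside CHGB and VGF in the germ class. All 13 listed markers had UMIs in baboon germ cells, with sums of 368 to 445 CPM over the libraries against 7.37 to 15.6 in Sertoli cells. They were led by TH (214 UMIs in 85 cells), ISL1 (187 UMIs in 100 cells), a transcription factor of neurons, and PNMT (64 UMIs in 46 cells). In rhesus germ cells 13 of 14 had UMIs, with sums of 149 to 312 CPM, led by TH (193 UMIs in 106 cells), while DBH, the enzyme between TH and PNMT in adrenaline synthesis, held 2 and ISL1 held 1. Germ cells with a CHGB UMI held 495 CPM of the list against 342 in those without in the baboon, and 355 against 228 in the rhesus monkey, and they were the deeper cells (medians of 14575 against 5015 and 5781 against 2186 UMIs). Free RNA would give 0.814, 0 and 0.763 CPM of CHGB in germ cells of baboon libraries 1A, 1B and 2. In rhesus libraries 1, 2A and 2B it would give 0.412, 0.124 and 0.169. For VGF in baboon germ cells it would give 0.0708, 0 and 0. Each value lies below the measured level, and the 0 values stand for 0 UMIs in the near-empty droplets. The part of other cells in the CHGB and VGF levels was not tested.

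CHGB had its most like patterns in RER1 (r = 0.802), MAGEB1 (r = 0.80) and HSPA4 (r = 0.789) across the 27 baboon points among the 12139 genes. It had too few UMIs for this comparison in the rhesus monkey.

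SCG5, which binds PCSK2 as a chaperone and inhibitor, had most of its UMIs in rhesus Sertoli cells. It was at 275 CPM (2300 UMIs) in library 1, 520 (2090 UMIs) in 2A and 521 (1994 UMIs) in 2B, or 398 ± 174 (SD, n = 2 animals), and Sertoli cells held 84.1% of its UMIs. The 2 libraries of animal 2 were alike and both stood above animal 1. Of 7888 Sertoli cells, 3794 had a UMI and the highest count was 12.

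Germ cells held SCG5 at 54.1, 117 and 118 CPM, stromal cells at 39.8, 28.2 and 26.2 and Leydig cells at 40.7, 36.5 and 12.6 in libraries 1, 2A and 2B. Near-empty droplets held 168, 284 and 261 CPM. In stromal cells free RNA would give 55.3, 33.3 and 29.7 in libraries 1, 2A and 2B, above the measured level in each, but these are the highest values free RNA could give, and its part in the stromal level was not tested. In germ cells free RNA would give 24.2, 23.4 and 8.86, below the measured 54.1, 117 and 118 in each library. In Leydig cells it would give 38.0, 16.05 and 12.7, close to the measured 40.7 and 12.6 in libraries 1 and 2B and below the 36.5 in 2A.

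At 1000 UMIs per cell, 31.7% of 6847 Sertoli cells had an SCG5 UMI (exact 95% binomial interval 30.6 to 32.8; 48.1% unthinned), against 5.37% of 298 germ cells (3.1 to 8.57; 21.2% unthinned), 4.60% of 435 Leydig cells (2.83 to 7.01; 12.1% unthinned) and 2.95% of 11622 stromal cells (2.65 to 3.28; 4.59% unthinned). Median depths were 1652.5, 2436.5, 3535 and 1438 UMIs per cell. The Sertoli level moved little with depth, from 250 to 292 CPM over the parts by depth of library 1 and from 505 to 556 over those of 2A. SCG5 was most like REEP6 (r = 0.901), TSTA3 (r = 0.894) and HPCAL1 (r = 0.888) across 29 points.

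SCG3, which ties granule cargo to the granule membrane, had few UMIs in the rhesus monkey. Sertoli cells held 30 UMIs, at 2.15, 1.49 and 1.57 CPM in libraries 1, 2A and 2B. Germ cells held 9 UMIs, all in library 1 (7.85 CPM, exact 95% Poisson interval 3.59 to 14.9), and the 0 UMIs in 2A and 2B allow up to 10.0 and 13.2. Summed over both libraries, germ cells of animal 2 held 0 SCG3 UMIs among 527661 UMIs of all genes. A difference between the animals was not tested. Of the 9 germ cells with an SCG3 UMI, 4 also had a CHGB UMI.

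SCG2, the precursor of secretoneurin, was near the limit of detection. It had 13 UMIs in called baboon cells, of which 11 were in stromal cells, and 5 in rhesus cells, of which 4 were in stromal cells. As CPM this was 1.05 ± 0.808 (SD, n = 2 animals) in baboon stromal cells. Each germ class held 1 SCG2 UMI.

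The genes that process granins were looked at in the same classes, whatever their test gave. PCSK1 had 0 UMIs in baboon cells and 2 in rhesus cells, both in germ cells, and PCSK2 had 64 UMIs in baboon cells, of which 52 were in stromal cells, and 0 in rhesus cells. Both convertases that cut granins were thus at or near 0 in rhesus cells. PCSK1N, which encodes proSAAS, a granin-like inhibitor of PCSK1, was at 233 ± 88.2 CPM in baboon Sertoli cells, 219 ± 54.0 in stromal cells and 148 ± 1.89 in germ cells (SD, n = 2 animals), and in the rhesus monkey at 6.72 ± 5.36, 7.75 ± 9.87 and 75.0 ± 3.77.

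CPE, which trims basic residues from cut peptides, was at 337 ± 222 CPM in baboon and 267 ± 88.9 in rhesus stromal cells (SD, n = 2 animals). Its levels were 4.34 ± 1.63 and 81.0 ± 18.3 in Sertoli cells and 57.7 ± 4.42 and 44.6 ± 20.0 in germ cells of the baboon and the rhesus monkey. PAM was at 65.3 ± 10.3 and 89.4 ± 42.1 in stromal cells, 61.9 ± 6.84 and 55.3 ± 26.4 in germ cells and 8.54 ± 2.93 and 10.8 ± 0.111 in Sertoli cells. So stromal cells, the class with CHGA, also held CPE and PAM in both species.

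Of the granins, CHGA, CHGB and VGF passed the filter on low counts in the baboon comparison of germ with all somatic cells. In the rhesus monkey CHGA, CHGB, SCG3 and SCG5 passed it. These granins are among the genes counted below, and their own test values are not reported here. UMIs of each class were summed per animal for edgeR's quasi-likelihood test, with 2 animals per species. The somatic sum pools all named somatic classes, so its levels follow their makeup, which differs between the species. Sertoli cells were 71.0% of called baboon and 29.8% of called rhesus cells, and stromal cells 20.8% and 53.7%. In the baboon 3239 of 17153 genes (18.9%) were higher and 3471 (20.2%) lower in germ cells at an adjusted p under 0.05, and with the animal as a block 26% and 32%. For the rhesus monkey, 1935 of 13015 genes (14.9%) were higher and 1956 (15%) lower, and 20.2% and 22.7% with the block.

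Of 24 genes for other peptides of dense-core granules, 14 were tested in the baboon, of which 6 were higher in germ cells, 0 were lower and 8 did not pass. The shares over all tested genes were 18.9% higher and 20.2% lower without the block. With the block 7 of the list were higher and 0 lower, against 26% and 32% over all genes. The list's median log2 fold change was 1.41, against -0.22 over all genes. NPY, neuropeptide Y, was at 27.5 and 48.8 CPM in germ cells of baboons 1 and 2 and at 0.414 and 0.387 in somatic cells, which is 5.93 on the log2 scale (SE 0.52, adjusted p = 0.000928). GAL, galanin, was at 147 and 187 against 4.79 and 14.3 (3.55, SE 0.50, adjusted p = 0.00315). The DLK1-high stromal cells held GAL above these somatic values, as given below. POMC, the precursor of ACTH and endorphin, was at 68.1 and 57.4 against 8.86 and 7.02 (2.35, SE 0.34, adjusted p = 0.00331). The tachykinin genes TAC1 (5.96, SE 0.95) and TAC3 (5.93, SE 0.81) and CCK, cholecystokinin (2.62, SE 0.72), were the other 3, with adjusted p of 0.00461, 0.00281 and 0.0299. The average level over the summed samples was low for TAC1 and TAC3 (log2 CPM of -0.28 and 0.08), so their folds rest on low levels. No germ value overlapped a somatic one for NPY, GAL and POMC. These genes were named because they passed, and the share of all tested genes without such overlap was not counted, so this adds no result. Without library 1A, CCK no longer passed (adjusted p = 0.0605).

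Of the peptide list, 9 were tested in the rhesus monkey, and POMC was higher and ADM, adrenomedullin, lower in germ cells. The shares over all tested genes were 14.9% higher and 15% lower. The list median was 0.34 against -0.12 over all genes. POMC was at 40.3 and 47.6 CPM in germ cells of animals 1 and 2 against 3.97 and 3.06 in somatic cells (log2 fold change 3.27, SE 0.44, adjusted p = 0.00302). ADM fell by 2.31 on the log2 scale (SE 0.69, adjusted p = 0.0412), which did not pass without library 2A (adjusted p = 0.119). With the block 3 genes of the list were higher and 1 lower, against 20.2% and 22.7% over all genes. NPY stood at a log2 difference of 1.38 (SE 1.16, adjusted p = 0.401), and 2.19 with the block (adjusted p = 4.19e-05). Without the block POMC was the gene of the list higher in germ cells of both species, and with it NPY was too (5.91 in the baboon, adjusted p = 9.03e-22).

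Of 15 processing genes, 13 were tested in the baboon, of which 2 were higher in germ cells, 3 lower and 8 did not pass. With the block 3 were higher and 5 lower. Over all tested genes 18.9% were higher and 20.2% lower without the block. The list's median log2 fold change was -1.18, against -0.22 over all genes. PAM was higher, at 67.1 and 57.4 CPM in germ cells against 17.9 and 16.4 in somatic cells (1.24, SE 0.29, adjusted p = 0.0184). Sertoli cells, with little PAM, were 71.0% of the called baboon cells, and the stromal level of PAM given above (65.3 CPM) was close to that of germ cells (61.9 CPM). Also higher was the gene of carboxypeptidase M, whose symbol CPM is not the unit here (2.06, SE 0.66, adjusted p = 0.0496), which did not pass without library 1B (adjusted p = 0.0511). The convertase PCSK6 (-3.45, SE 0.65, adjusted p = 0.00806), the carboxypeptidase CPD (-3.29, SE 0.43, adjusted p = 0.00246) and PCSK1N (-1.18, SE 0.26, adjusted p = 0.0149) were lower. Among rhesus genes 11 were tested, with a median of -0.51, against -0.12 over all genes. Of these 0 were higher and 3 lower (1 and 4 with the block), against 14.9% and 15% over all genes. The 3 were QPCT, which caps peptides with pyroglutamate (-3.38, SE 0.46, adjusted p = 0.00302), CPE (-2.34, SE 0.38, adjusted p = 0.00479) and CPD (-2.06, SE 0.48, adjusted p = 0.0171). Rhesus CPE was higher in stromal than in Sertoli cells, as given above, and stromal cells were the most numerous rhesus class. CPD was lower in germ cells of both species, but with classes from clusters it did not pass in the rhesus monkey (adjusted p = 0.0573). QPCT and PCSK1N went opposite ways in the 2 species in edgeR's test. Baboon QPCT stood at 1.49 (adjusted p = 0.0672), and at 1.55 with the block (adjusted p = 0.00553). Rhesus PCSK1N stood at 2.56 (adjusted p = 0.0592), and at 3.09 with the block (adjusted p = 4.46e-07).

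**Figure D5:**
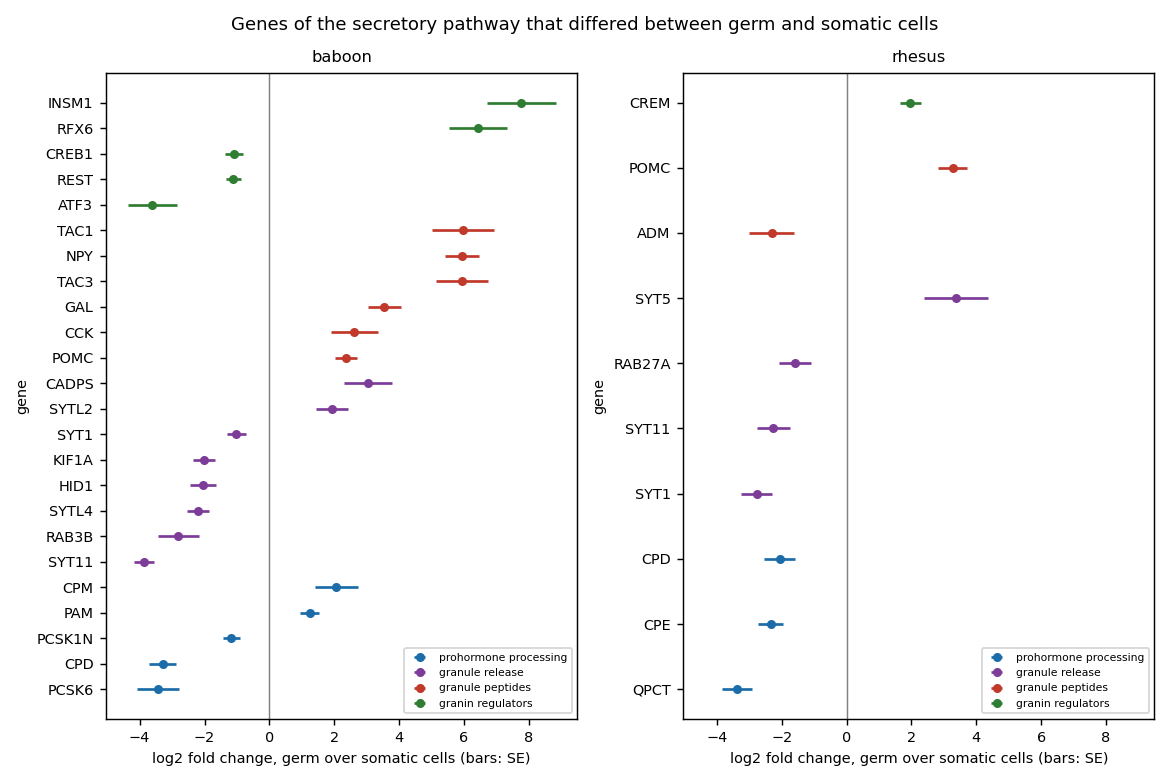
Log2 fold change of germ over somatic cells (horizontal axes, bars are SE) for the genes of the 4 lists that passed an adjusted p of 0.05 in edgeR's quasi-likelihood test, baboon on the left and rhesus monkey on the right, coloured by list. INSM1 lies farthest to the right in the baboon (7.77) and SYT5 in the rhesus monkey (3.38), and the lists hold genes on both sides of 0.

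Of 30 genes for granule transport and release, 21 were tested in the baboon. Of these 2 were higher in germ cells, 6 lower and 13 did not pass (4 and 7 with the block). Over all tested genes 18.9% were higher and 20.2% lower without the block. The list's median log2 fold change was 0.12, against -0.22 over all genes. CADPS, which primes dense-core granules, was higher, at 6.10 and 3.83 CPM in germ cells against 0.295 and 0.484 in somatic cells (3.04, SE 0.73, adjusted p = 0.0192). Its average level was low (log2 CPM of 0.24), so its fold rests on few UMIs. SYT11 (-3.87, SE 0.30), the small GTPase gene RAB3B (-2.80, SE 0.62), SYTL4 (-2.20, SE 0.33), HID1 (-2.05, SE 0.41) and the kinesin gene KIF1A (-2.02, SE 0.33) were lower, with adjusted p of 0.00074 to 0.0142. SYTL4 and HID1 did not pass without library 1A (adjusted p = 0.0550 and 0.0600). Of the same list 17 were tested in the rhesus monkey, with a median of -0.53, against -0.12 over all genes. Of these 1 was higher and 3 lower (1 and 5 with the block), against 14.9% and 15% over all genes. SYT5 was higher (3.38, SE 0.99, adjusted p = 0.0377) and SYT1 (-2.77, SE 0.47), SYT11 (-2.26, SE 0.51) and RAB27A (-1.60, SE 0.49) were lower, with adjusted p of 0.0056, 0.0147 and 0.0447. The average level of SYT5 was low too (log2 CPM of 0.51). With classes from clusters SYT5 and RAB27A did not pass (adjusted p = 0.0524 and 0.0742), nor did RAB27A with DESeq2 (0.0564) or without library 2A (0.156). The synaptotagmin genes SYT11 and SYT1 were lower in germ cells of both species. SYT1, beyond the 6 largest named for the baboon, stood there at -1.02 (SE 0.29, adjusted p = 0.0343).

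Of 16 regulators of granin and endocrine genes, 8 were tested in the baboon. Of these 2 were higher in germ cells, 3 lower and 3 did not pass, with and without the block. Over all tested genes 18.9% were higher and 20.2% lower without the block. The list's median log2 fold change was -0.56, against -0.22 over all genes. INSM1, a zinc finger factor of endocrine cells, was at 7.12 and 14.4 CPM in germ cells against 0 and 0.0484 in somatic cells (7.77, SE 1.06, adjusted p = 0.00279). Its fold depends on the prior count since 1 somatic value is 0. RFX6, a factor of pancreatic endocrine cells, was higher too (6.42, SE 0.90, adjusted p = 0.00303), at a low average level (log2 CPM of -0.33). REST was lower (-1.11, SE 0.23, adjusted p = 0.0107), as were the stress-response factor ATF3 (-3.61, SE 0.76, adjusted p = 0.0118) and CREB1, which binds cyclic AMP response elements (-1.08, SE 0.27, adjusted p = 0.0222). CREB1 did not pass without library 1A (adjusted p = 0.0561). Over all rhesus genes 14.9% were higher and 15% lower without the block. Rhesus libraries let 5 regulators be tested, of which 1 was higher and 0 lower (1 and 1 with the block). This was CREM, a relative of CREB1 with a known role in later germ cells, at 327 and 276 CPM against 65.2 and 56.2 (1.96, SE 0.33, adjusted p = 0.0054). Rhesus REST did not pass (-0.29, SE 0.33, adjusted p = 0.537).

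In the comparison of DLK1-high with C7-high stromal cells, CHGA in both species and SCG5 in the rhesus monkey passed the filter. They are among the genes counted next, and their own test values are not reported here. With edgeR's quasi-likelihood test 0 of 9781 baboon and 0 of 10207 rhesus genes (0% higher and 0% lower) had an adjusted p under 0.05, and 332 and 119 had an unadjusted p under 0.05. Both parts came from the same animals, and with the animal as a block 4.01% of the baboon genes were higher in DLK1-high cells and 4.84% lower, and 2.4% and 2.1% in the rhesus monkey. DESeq2 without the block called 29 and 12 genes. The blocked fit leaves 1 residual degree of freedom per gene, so its p-values rest mostly on the spread estimated across genes.

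The genes named next were chosen after their values were seen, since no gene passed without the block. With the block, PENK, the precursor of enkephalin, was higher in DLK1-high cells of both species. It was at 84.0 and 137 CPM in DLK1-high cells of baboons 1 and 2 against 17.4 and 36.6 in C7-high cells (log2 fold change 1.96 with the block, adjusted p = 1.67e-24, and 0.538 without it), and in the rhesus monkey at 52.9 and 1.79 against 10.9 and 0 (2.28 with the block, adjusted p = 1.46e-06, and 1.00 without it). Galanin (GAL) was at 58.0 and 96.5 against 11.6 and 19.1 CPM in the baboon (2.31 with the block, adjusted p = 2.87e-23, and 0.466 without it). CPE was lower in DLK1-high cells with the block in both species (log2 fold changes of -0.89 and -0.71, adjusted p = 3.80e-12 and 0.00255), but in rhesus animal 2 it was at 326 in DLK1-high against 315 in C7-high cells. QPCT was higher in both (1.02 and 0.85, adjusted p = 0.00064 and 1.99e-05).

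With the block, 4.01% of all baboon genes were higher in DLK1-high cells and 4.84% lower, and 2.4% and 2.1% in the rhesus monkey. Over the lists, 2 of 5 tested peptide genes were higher and 1 lower with the block in the baboon, and 1 and 1 of 5 in the rhesus monkey. Of the processing genes 2 of 10 were higher and 1 lower in the baboon, and 1 and 1 of 9 in the rhesus monkey. Of the release genes 1 of 10 were higher and 2 lower, and 1 and 0 of 14, and of the regulators 0 and 1 of 5, and 0 and 0 of 5. Without the block 0 genes of the 4 lists passed in either species. List medians of the log2 fold change without the block lay between -0.40 and 0.16 in the baboon and between -0.08 and 0.03 in the rhesus monkey, against 0.01 and -0.01 over all genes.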

How the data were processed

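The authors counted UMIs per gene and barcode with Cell Ranger 3.1.0 against Panubis1.0 (baboon) and Mmul_10 (rhesus), and the deposited values are raw counts for all barcodes of each chemistry, before cell calling. The processing notes also name Seurat 3.2.3, whose output was not used here. The 6 genes, the cell class rule and all gene lists were chosen with earlier results of these data known, and nothing here is independent of them.

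Cells were barcodes above the 99th percentile of the top 5000 barcodes divided by 10, plus those with at least 500 UMIs that differed from near-empty droplets (barcodes ranked 45001 to 90000 by UMIs, 10000 simulations, adjusted p of 0.01), all with at least 200 genes. No filter on mitochondrial share was used. On simulated data the caller took 298 of 300 small cells and 3 of 600 droplets. A cell entered a class when its marker UMIs gave a posterior of at least 0.9 and it showed at least 2 markers of the class, and a Leydig cell also needed 2 INSL3 UMIs. Of cells nearest to the germ class, 137 baboon and 181 rhesus cells missed the posterior and 176 and 434 the markers. Doublets were scored with scanpy 1.11.5 and kept, and 4.47% to 8.94% of the cells per library were marked. Leaving them out is an alternative.

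Levels are CPM, the UMIs of a gene per 1000000 UMIs of all genes in the class, with exact Poisson intervals. Means and SDs are over the 2 animals of a species, with libraries of 1 animal summed, and no source says whether paired libraries came from separate suspensions. Intervals are at 95%, and a count of 0 allows up to 3 UMIs or cells. Free RNA was taken from the near-empty droplets.

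Counts summed per animal and class were tested with edgeR 4.0.16 (quasi-likelihood, TMM, filterByExpr, two-sided, Benjamini-Hochberg) in R 4.3.3, with DESeq2 1.42.0 as an alternative. Both classes come from the same animals, so animals pair the samples. Deviations from class means correlated within animals at 0.716 (stroma) and 0.35 (germ) in the baboon and at 0.84 and 0.231 in the rhesus monkey. On simulated counts with 200 genes changed by a log2 of 2, the test recovered 96.5% (baboon stroma, 9781 genes), 64.5% (baboon germ, 17153 genes), 97% (rhesus stroma, 10207 genes) and 58.5% (rhesus germ, 13015 genes). The simulated counts held no difference between animals, unlike the data. These shares therefore do not tell what the test without the block could find in the data.

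Genes named are the granins, called genes of 4 lists (at most 6 per list and comparison, by size), PCSK1, PCSK2, PCSK1N, CPE and PAM, and for granins with at least 200 UMIs the 3 genes of highest r of log2(CPM + 1). Genes of the class marker lists were left out of each ranking by r. Sequences and positions came from the RefSeq Mmul_10 genome and annotation, the build of the files. A baboon genome was not used here. Alternatives changed cell calling, classes (clusters, 1 more marker), doublets, free RNA, thinning, filter, scaling, tool, block, and each library. The values of 1 marker of the nerve and chromaffin list are not reported here.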

Additional observations from a re-analysis of the deposited data

Results flagged for a closer look

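Cells of no class were outside every comparison, and some held granin UMIs above the floor of 3. The 1062 such baboon cells held 56 CHGA UMIs in 39 cells (25.4 CPM) and 40 CHGB UMIs in 35 cells (18.1). The 2046 such rhesus cells held 53 CHGA UMIs in 49 cells (19.7 CPM), 13 CHGB UMIs in 12 cells (4.84), 5 SCG3 UMIs in 5 cells (1.86) and 166 SCG5 UMIs in 143 cells (61.8). They held 0 VGF and 0 SCG2 UMIs in both species.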

How the results depend on the processing

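Of the class levels, ratios and gene counts under alternatives, 146 values stayed and 16 moved, and none turned its direction. A level or ratio was counted as stayed when it shifted by less than the SD over the 2 animals. A gene count stayed when it was within 1.5 times of the main count. Leaving out 1 of 2 animals always shifts their mean by less than that SD, so such values could not count as moved. With the UMI cutoff alone the baboon CHGA ratio of DLK1-high to C7-high cells was 1.44. With classes from clusters the baboon CHGB ratio of the germ parts was 0.85 and baboon germ VGF was 21.0 CPM. With free RNA subtracted rhesus stromal SCG5 was 0. Leaving out each library gave 1.73 to 2.49 for the baboon CHGA ratio, 1.20 to 1.62 for the baboon CHGB ratio, and 44.6 to 71.6 CPM for rhesus germ CHGB, the lowest without library 2A. Without baboon 2, stromal CHGA was 33.2 and Sertoli CHGB 11.2 CPM, and without rhesus 1 germ SCG3 was 0. The cause was not tested.

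Counts of genes that differed between stromal parts were 0 in both species and became 121 and 3 with no filter on low counts, 29 and 12 with DESeq2 and 56 and 7 with libraries as samples (baboon and rhesus). With the animal as a replicate block they were 865 and 459, and counts in the germ comparison stayed within 1.5 times. Leaving out either library of the animal with 2 kept the stromal counts at 0, and without the other animal no test was possible. Clusters gave DLK1-type cells in baboon 2 only. Of single-gene fold changes, 15 lost their call under an alternative and none turned.

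Few UMIs limit SCG2, SCG3 and the baboon VGF values, and the 220 and 354 germ cells limit the parts. With 2 animals per species, animal, age and, in the baboon, chemistry cannot be told apart.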
